A study of Mus musculus with 6 samples.

Results

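A total of 640 regions carried peaks of both H3K4me3 and H3K27me3, out of 18940 regions with H3K4me3 in mouse embryonic fibroblasts (MEFs, C57BL/6). MEFs are primary connective-tissue cells grown from embryos. The regions were obtained by joining all H3K4me3 peaks of treated and untreated cells that shared at least 1 bp. A joined region was kept when it shared at least 1 bp with an H3K27me3 peak of either condition that itself touched no input peak. Mitochondrial peaks were left out. The regions were thus chosen by the presence of both marks in the pooled conditions, and that presence is not a result. A longer region also has more room for an overlap, so region length is not independent of the choice.

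The study gives 6 libraries, with 1 library for each of H3K4me3, H3K27me3 and input DNA from cells exposed to a chemical combination named 6TCF and from untreated control cells. All were taken on day 6. The growth protocol is the same text for all samples and moves the cells from fibroblast medium to a serum medium with basic fibroblast growth factor, without saying whether the control cells received it. The labels do not spell out the components of 6TCF, nor how many embryos a culture came from. For the antibodies the labels contradict themselves: the libraries titled H3K4me3 carry the entry H3K4me2, and those titled H3K27me3 carry H3K4me1. Marks are named here after the titles and the extraction protocol, and these names are not settled. Since a group is 1 library, differences between conditions lack a replicate check and no p-value is given. Intervals are 95% intervals for counting error only, which treat regions as independent.

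Trimethylation of histone H3 at lysine 4 is laid down by the Set1/MLL methyltransferases and marks active promoters and promoters held ready for use. Trimethylation at lysine 27 is laid down by Polycomb repressive complex 2 and marks silenced genes, many of them developmental regulators. Regions with both marks are called bivalent, and they are best known from pluripotent cells, where they lie at promoters of lineage genes that are silent but can be switched on. In a bulk culture the marks of such a region can lie on the same nucleosome, on different alleles or in different cells, and these cases cannot be told apart here. Fibroblast marker genes could not be checked, because regions are named by mm9 position only and the gene and sequence tables used here are of another build.

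The H3K27me3 peaks in these regions were short. A total of 193 of the 587 treated H3K27me3 peaks clear of input lay in them (32.9%, interval 29.2 to 36.8), and 572 of the 998 untreated ones (57.3%, 54.2 to 60.4). The treated ones had a median width of 208 bp and the untreated ones 308 bp, and only 4 and 60 of them reached 600 bp, the mean length of the sheared chromatin. H3K27me3 peaks clear of input that lay elsewhere had medians of 145 and 151 bp, and all input peaks had medians of 146 and 142 bp. The H3K27me3 lists used here therefore hold short stretches, not the long domains for which Polycomb is known. Of the 640 regions, 530 had a single H3K27me3 peak, 99 had 2, 10 had 3 and 1 had 11, counted over both conditions. The H3K4me3 part was simple too: 548 regions consisted of 1 treated and 1 untreated peak.

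H3K4me3 was listed in both conditions in most of the 640 regions, whereas H3K27me3 was mostly listed in untreated cells alone. H3K4me3 was present in both lists in 560 regions (87.5%, 84.7 to 89.8), in treated cells only in 68 (10.6%, 8.47 to 13.3) and in untreated cells only in 12 (1.88%, 1.08 to 3.25). Among all 18940 regions 9.79% were treated-only and 4.27% untreated-only, so the treated-only share was near that of all regions and the untreated-only share lay below it. H3K27me3 was listed in untreated cells only in 455 regions (71.1%), in treated cells only in 126 (19.7%) and in both in 59 (9.22%, 7.21 to 11.7). The untreated H3K27me3 list was also the longer one, with 998 against 587 peaks clear of input, and its part in these counts was not tested.

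Both marks were listed together in untreated cells in 463 regions (72.3%, 68.8 to 75.7) and in treated cells in 180 (28.1%, 24.8 to 31.7). All 4 lists met in 57 regions (8.91%, 6.94 to 11.4). The largest class, with 399 regions (62.3%), had H3K4me3 in both conditions and H3K27me3 in untreated cells only, and 104 regions (16.3%, 13.6 to 19.3) had H3K4me3 in both and H3K27me3 in treated cells only. In 54 regions (8.44%, 6.52 to 10.9) the marks were never listed in the same condition. Of these, 49 had H3K4me3 in treated and H3K27me3 in untreated cells, and 5 were the other way round. These counts follow the shares over all H3K4me3 regions: an untreated H3K27me3 peak lay on 2.75% (2.10 to 3.60) of the 1854 treated-only regions and on 2.80% of the 16278 shared ones. A treated H3K27me3 peak lay on 0.619% (0.265 to 1.44) of the 808 untreated-only regions and on 0.989% of the shared ones, with overlapping intervals. The smaller classes were 17 regions with both marks in treated cells only, 7 with both in untreated cells only, and 2 with treated-only H3K4me3 and H3K27me3 in both. A treated H3K27me3 peak lay on 1.03% (0.657 to 1.60) of all treated-only regions, near the 0.989% of shared ones. An untreated H3K27me3 peak lay on 0.866% (0.420 to 1.78) of all untreated-only regions, below the 2.80% (2.56 to 3.07) of shared ones.

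H3K4me3 was wider in treated than in untreated cells in most regions with both marks. Over the 560 regions with H3K4me3 in both conditions H3K4me3 had a median summed width of 2008 bp after treatment and 1587.5 bp without it, and the total covered was 1251 kb against 1001 kb. On the log2 scale the median ratio of treated to untreated width was 0.27 (0.23 to 0.30), a 1.21-fold difference, with a standard deviation of 0.37 across regions. In the other 15718 regions the medians were 2166 and 2213 bp, with a log2 ratio of -0.03 (-0.03 to -0.02) and a standard deviation of 0.32. The treated width was the larger one in 489 of the 560 regions (87.3%, 84.3 to 89.8), against 46.7% of all regions with H3K4me3 in both conditions. A similar shift was among the patterns known when these regions were singled out, so its recurrence is not independent support. Regions with an input peak and no H3K27me3 peak clear of input gave a median log2 ratio of 0.02 (-0.03 to 0.06, 137 regions). Of these, 55.5% were wider in treated cells. Such regions can still hold an H3K27me3 peak that lies on an input peak, so they are not a set free of H3K27me3.

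**Figure D1:**
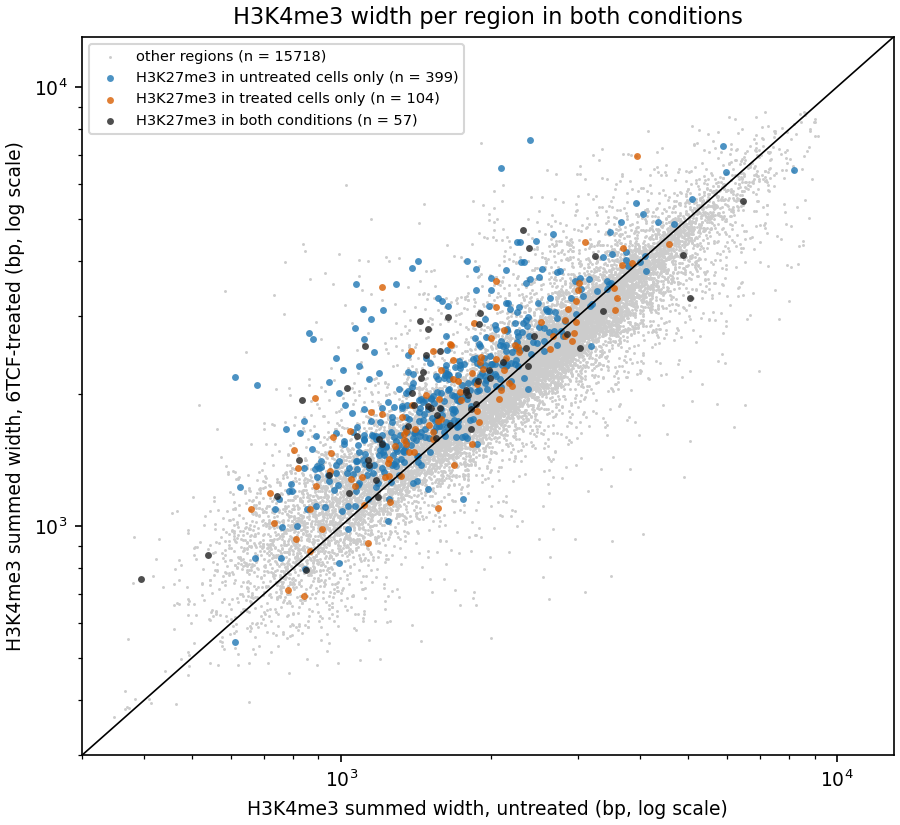
Each point is 1 region with H3K4me3 in both conditions, placed by its summed H3K4me3 width in untreated (x) and treated cells (y), in bp on log axes, with the diagonal marking equal width. Points of the 560 regions with H3K27me3, coloured by the condition in which it was listed, lie above the diagonal in 489 cases, while the 15718 grey points of other regions lie on both sides of it.

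Larger differences were nearly all in the same direction. At least 1.5-fold more width in treated cells was found in 112 regions (interval 16.9% to 23.5%), against 5.07% of all regions, and at least 1.5-fold more in untreated cells in 2 regions (0.357%, 0.098 to 1.29), against 2.59%. At a 2-fold difference the numbers were 34 regions in favour of treated cells, where 1.14% of all regions passed, and 0 of 560 in favour of untreated cells, which allows a share of up to 0.536%, where 0.534% of all regions passed. The last share is therefore not separated from the background. The ratio ran from -0.61 to 1.84 on the log2 scale.

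The H3K4me3 ratio was above 0 whichever condition the H3K27me3 peak came from. Where H3K27me3 was listed in untreated cells only the median log2 ratio was 0.29 (0.25 to 0.32, 399 regions), and 90.5% of regions were wider in treated cells. Where it was listed in treated cells only the median was 0.20 (0.14 to 0.24, 104 regions), with 77.9% wider (69.0 to 84.8). Regions with H3K27me3 in both lists had a median of 0.29 (0.18 to 0.46, 57 regions), with 82.5% wider (70.6 to 90.2), and 17 of them (29.8%, 19.5 to 42.7) passed 1.5-fold in treated cells. A wider H3K4me3 peak in treated cells was thus also found where H3K27me3 was listed in treated cells.

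**Figure D2:**
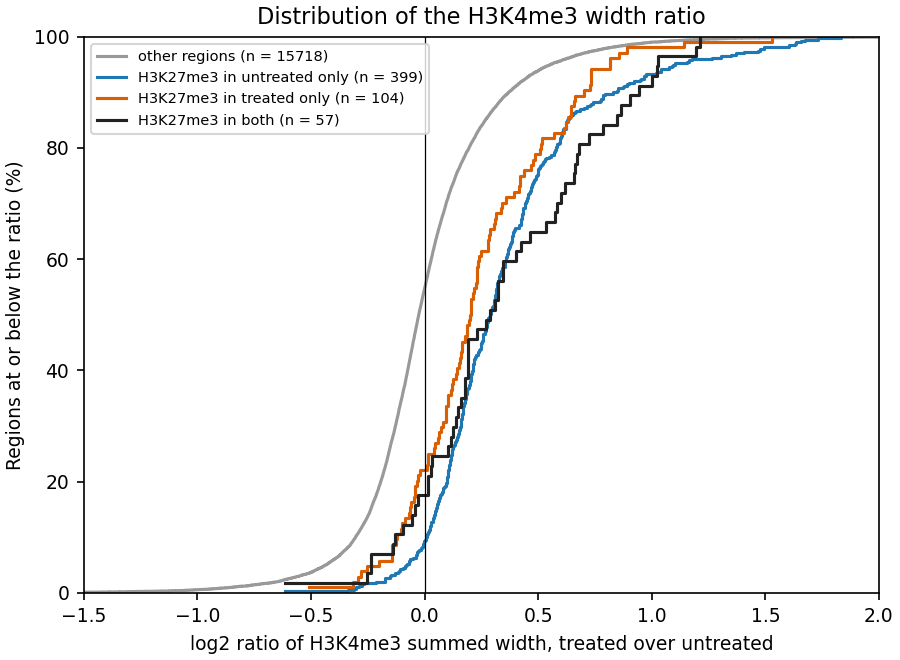
The curves give, for each value of the log2 ratio of treated to untreated H3K4me3 width (x), the share of regions at or below it (y, %). The curves of the 3 classes of regions with H3K27me3, with medians of 0.29, 0.20 and 0.29, run to the right of the grey curve of other regions, with a median of -0.03.

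Regions with both marks were narrower than most in untreated cells, and narrow regions were wider in treated cells in general, so regions of like width were set side by side. The median region with both marks stood at percentile 29.1 of all shared regions by untreated width and at percentile 43.8 by treated width. With a geometric mean width of 1000 to 1500 bp the median log2 ratio was 0.31 (0.26 to 0.36, 158 regions), against 0.10 (0.09 to 0.11) in 2447 other regions. With 2000 to 3000 bp it was 0.23 (0.18 to 0.29, 153 regions), against -0.06 (-0.06 to -0.05) in 5079 other regions. Up to 1000 bp the values were 0.35 (0.16 to 0.61, 28 regions) and 0.14 (0.10 to 0.16), with intervals that barely overlap. Over 4000 bp they were 0.13 (-0.06 to 0.43, 17 regions) and -0.06 (-0.07 to -0.05), so the widest regions with both marks were too few to place them apart from 0.

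**Figure D3:**
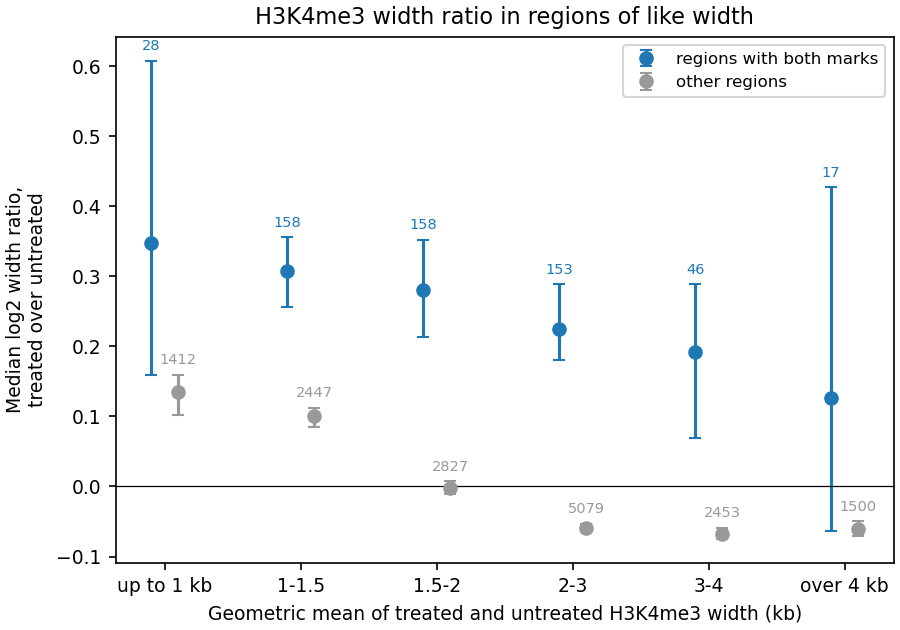
Points give the median log2 H3K4me3 width ratio, treated over untreated (y) in classes of geometric mean width (x, kb), for regions with both marks (blue) and other regions (grey), with 95% order-statistic intervals and the number of regions above each. The blue points fall with width and the grey ones fall to -0.07 at 3 to 4 kb. The blue points lie above the grey ones in every class, from 0.35 against 0.14 to 0.13 against -0.06.

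The extra H3K4me3 width lay at both ends of the regions. The treated peak reached further than the untreated one by a median of 139 bp at the end with the lower coordinate and 138 bp at the other end. In other regions the medians were -10.0 and -10.5 bp, which means that the untreated peak reached slightly further. The treated H3K4me3 reached further at both ends in 374 of 560 regions (66.8%, 62.8 to 70.6), against 27.5% of all regions, and the untreated one did so in 32 (5.71%, 4.08 to 7.96), against 30.2%. Regions with an input peak and no H3K27me3 peak clear of input stood between, with 41.6% (57 of 137) and 23.4%. Where H3K27me3 was listed in treated cells only the share with both ends further out in treated cells was 59.6% (62 of 104), and where it was listed in untreated cells only it was 68.4% (63.7 to 72.8).

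The treated H3K4me3 reached slightly further at the end nearer to the H3K27me3 peak than at the other end, but input peaks showed the same. For this comparison an H3K27me3 peak had to touch the stretch with H3K4me3 in both conditions. With untreated H3K27me3 peaks the treated H3K4me3 reached further by a median of 161 bp at the nearer end and 122 bp at the farther end, and the nearer end had the larger shift in 217 of 369 regions (58.8%, 53.7 to 63.7). With treated H3K27me3 peaks the medians were 134 and 84 bp, in 70 of 123 regions (56.9%, 48.1 to 65.3). Input peaks were taken from regions where no H3K27me3 peak clear of input touched the stretch with H3K4me3 in both conditions. With them the nearer end had the larger shift in 63 of 94 regions (67.0%, 57.0 to 75.7), with medians of 11 and -51.5 bp. The median difference between the ends was 60, 52 and 50.5 bp, so the side of the H3K27me3 peak was not separated from that of input.

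Among regions with untreated H3K27me3, the H3K4me3 ratio was highest where the H3K27me3 peak was widest. With the narrowest 25% of regions by their widest untreated H3K27me3 peak (58 to 215 bp) the median log2 ratio was 0.17 (0.12 to 0.20), and 78.1% of 114 were wider in treated cells (69.6 to 84.7). In the next classes, of 215 to 311 bp and 313 to 469 bp, it was 0.28 (0.25 to 0.32) and 0.24 (0.18 to 0.36). With H3K27me3 peaks of 472 to 1670 bp it was 0.43 (0.36 to 0.57), and 109 of 114 regions (95.6%) were wider in treated cells. That interval just overlaps the one of the class before it, and the medians did not rise at every step. Median H3K4me3 widths in these classes were 1623.5, 1564, 1628.5 and 1505.5 bp in untreated and 1920.5, 1895, 2115.5 and 2137 bp in treated cells. The class with the widest H3K27me3 thus also had the narrowest untreated H3K4me3, and the part of that in the ratio was not tested. With treated H3K27me3 peaks the widest class did not stand out. The medians were 0.19, 0.20, 0.25 and 0.20 from the narrowest to the widest class, with 40 or 41 regions each and overlapping intervals.

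Of evenly placed midpoints inside a region, 50% would fall in the central 50% of its length. Among untreated H3K27me3 midpoints inside the region, 309 lay in that central part and 223 outside it, a lean to the middle. Among treated ones clear of input the numbers were 72 and 98, a lean away from the middle. The shares that follow are of all peaks, also those with a midpoint outside the region, so the 50% mark does not apply to them directly. The central part held 309 of 575 untreated midpoints (53.7%, 49.7 to 57.8) and 72 of 194 treated ones (37.1%, 30.6 to 44.1). The 4 peaks that touched 2 regions are counted in each. In regions over 1000 bp long the shares were 54.2% (295 of 544) and 36.6% (29.8 to 43.9). Input peaks in regions of that size without an H3K27me3 peak clear of input fell there at 57.3% in untreated and 58.3% (49.6 to 66.5) in treated cells. The midpoint lay outside the region for 12.4% of treated (8.46 to 17.8) and 7.48% of untreated H3K27me3 peaks (5.60 to 9.92), and for 1.12% and 0.990% of input peaks. The gap between treated and untreated peaks depended on the input filter, which drops H3K27me3 peaks that lie on input peaks. Without it the shares in the central part were 51.3% (46.0 to 56.7) for treated and 57.1% (53.5 to 60.7) for untreated peaks, with overlapping intervals, so no difference in place between the conditions is shown. The filter also bears on the comparison with input peaks.

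**Figure D4:**
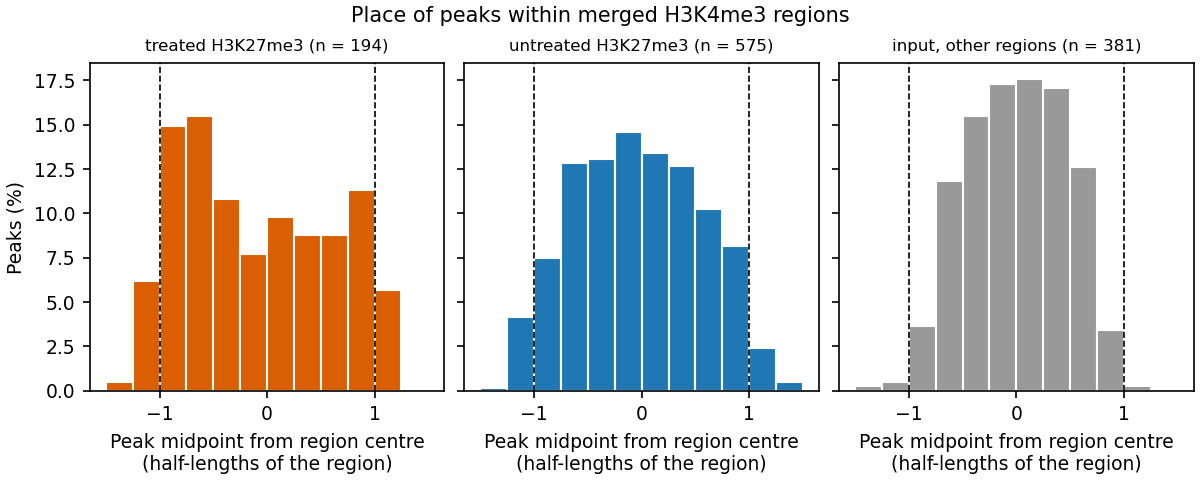
Histograms of peak midpoints relative to the centre of the region (x, where -1 and 1, dashed, are the ends of the region), as a share of the peaks in each panel (y, %). The central 50% of the region's length, which would hold 50% of evenly placed midpoints inside the region, holds 53.7% of all untreated and 37.1% of all treated H3K27me3 peaks. Of these peaks 7.48% and 12.4% have midpoints outside the region. The central part holds 67.3% (untreated) or 67.6% (treated) of input peaks in regions of any length without an H3K27me3 peak clear of input. In regions over 1000 bp long it holds 57.3% and 58.3% of them.

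Most H3K27me3 peaks sat where H3K4me3 was listed in both conditions. In the 560 regions with H3K4me3 in both, the midpoint lay on H3K4me3 of both conditions for 390 of 514 untreated H3K27me3 peaks (75.9%, 72.0 to 79.4) and for 108 of 167 treated ones (64.7%, 57.2 to 71.5). It lay on H3K4me3 of treated cells alone for 86 (16.7%, 13.8 to 20.2) and 36 (21.6%, 16.0 to 28.4). It lay on H3K4me3 of untreated cells alone for 6 and 3. These stretches differ in size, with 972 kb in both, 278 kb in treated cells alone and 28.3 kb in untreated cells alone. In 64 of the 560 regions no H3K27me3 peak touched the untreated H3K4me3 peak, so these regions were included through the treated H3K4me3 peak.

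Where H3K27me3 was listed in both conditions, treated and untreated peaks overlapped in some regions and lay apart in others. Of the 59 regions with H3K27me3 in both conditions, a treated and an untreated peak overlapped in 26 (44.1%, 32.2 to 56.7), and in the other 33 they were apart by a median of 288 bp, up to 765 bp. Summed H3K27me3 width in these regions had a median of 239 bp (treated) and 297 bp (untreated), and the untreated sum was larger in 41. Counted by peak, 72 of the 193 treated H3K27me3 peaks in regions with both marks had an untreated one within 1 kb, against 19 of 394 elsewhere. Of the 72, 32 overlapped it (44.4%, 33.5 to 55.9). Elsewhere 12 of the 19 did (63.2%, 41.0 to 80.9), so among peaks already within 1 kb the 2 shares were not separated. Out of all treated peaks, 32 of 193 overlapped an untreated one in regions with both marks, against 12 of 394 elsewhere. Untreated peaks were also more often in these regions (57.3% of those clear of input), and the part of that was not tested.

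The 8 regions with all 4 lists and the most H3K27me3 were each wider in H3K4me3 in treated cells, by between 1.01-fold and 2.32-fold. At chr8:109125398-109128198 a treated H3K27me3 peak of 1832 bp lay beside an untreated one of 926 bp, and H3K4me3 covered 2801 bp (treated) and 1498 bp (untreated). Nearly all of that H3K4me3 difference lay at the lower end, where the treated peak began 1232 bp further out. At chr17:85884514-85886449 H3K4me3 covered 1936 bp (treated) and 835 bp (untreated), with H3K27me3 peaks of 313 and 623 bp that did not overlap. At chr11:69747806-69750310 it covered 2505 and 1584 bp, with H3K27me3 peaks of 647 and 492 bp, and at chr6:30907767-30910007 it covered 2241 and 1459 bp. The least different were chr17:88034849-88036890 with 2042 and 1787 bp, chr9:107578192-107579378 with 1187 and 1039 bp, and chr11:48565582-48567477 with 1894 and 1873 bp. At chr17:26249581-26251451, with 1871 and 1494 bp, both ends reached further in treated cells by 188 and 189 bp.

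The region at chr11:48565582-48567477 stood apart from all others by its number of H3K27me3 peaks. It held 6 treated and 5 untreated ones of 74 to 391 bp, where no other region had more than 3 in all. Each treated peak overlapped an untreated one, and the starts of the first 5 peaks of each list differed by at most 10 bp. Its H3K4me3 ends differed by 23 and -2 bp between conditions. The nearest input peak was 1690 kb away. Of the regions with 3 H3K27me3 peaks, chr7:25395184-25398234 had H3K4me3 over 3051 bp (treated) and 1907 bp (untreated), and chr8:86534646-86536811 over 2166 and 1446 bp, each with 1 treated and 2 untreated H3K27me3 peaks. At chr9:43013473-43014530, with 2 treated and 1 untreated ones, H3K4me3 was listed in treated cells only, over 1058 bp.

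The 6 regions with the largest H3K4me3 ratio all had H3K27me3 in untreated cells only. So did 399 of the 560 regions with H3K4me3 in both conditions and 27 of the 34 with at least a 2-fold difference, so this is not particular to the 6. At chr7:35969668-35971844 H3K4me3 covered 2177 bp (treated) and 610 bp (untreated), a 3.57-fold difference, and the untreated H3K27me3 peak of 355 bp lay beyond the end of the untreated H3K4me3 peak. At chr5:31394646-31398200 the widths were 3555 and 1072 bp, with untreated H3K27me3 peaks of 651 and 741 bp, and the treated H3K4me3 peak spanned both. At chr7:4794183-4796937 they were 2755 and 862 bp, at chr6:84532928-84540508 they were 7581 and 2404 bp, and at chr2:172373714-172380239 they were 6526 and 2102 bp. The last of the 6 was chr5:38667448-38669544, with 2097 and 678 bp. In 3 of these 6 regions no H3K27me3 peak touched the untreated H3K4me3 peak, as in 9 of the 34 regions with at least a 2-fold difference.

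**Figure D5:**
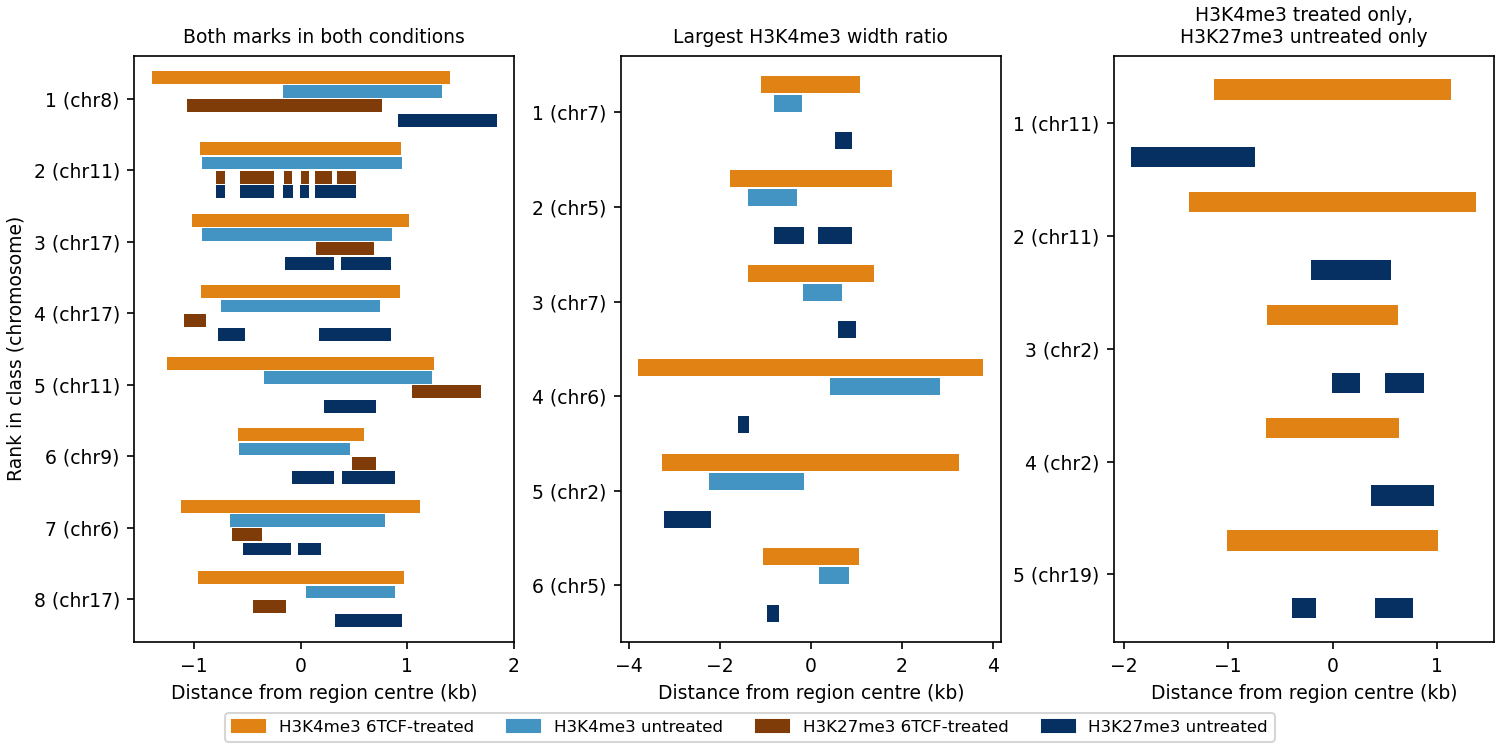
Maps of peaks against the distance from the region's centre (x, kb) for the 8 regions with both marks in both conditions and the most H3K27me3 (left), the 6 with the largest H3K4me3 width ratio (middle) and the 5 with treated-only H3K4me3 and untreated-only H3K27me3 and the most H3K27me3 (right), ranked from the top. Bars are peaks of the 4 lists. Treated H3K4me3 bars are longer than untreated ones in all 8 regions on the left, from a class of 57 of which 82.5% are wider in treated cells. In the middle panel they are longer because the regions were chosen by that ratio.

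Regions in which H3K4me3 was wider in untreated cells were few. The smallest ratios were at chr4:106135686-106137447, with 1151 bp (treated) and 1762 bp (untreated), and at chrY:1788059-1793247, with 3306 and 5056 bp. The region on chromosome Y overlapped 12 input peaks, counted over both conditions. It is 1 of 3 among the 640 regions with both marks that touched an input peak, against 163 of all 18940 regions. The rule drops H3K27me3 peaks that lie on input peaks, which can itself lower this count. At chr7:133847404-133848970 the widths were 1100 and 1567 bp, with a treated H3K27me3 peak of 157 bp. At chr15:102839303-102847486, where H3K4me3 was split into 2 peaks in each condition, they summed to 6463 and 8173 bp.

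The 49 regions with treated-only H3K4me3 and untreated-only H3K27me3 are no more than the shares given above over all H3K4me3 regions yield, and their values are given as a description. Their H3K4me3 peaks were 594 to 2757 bp wide with a median of 1206 bp, and their summed H3K27me3 was 121 to 1187 bp wide with a median of 296 bp. All 68 treated-only regions with H3K27me3 had a median H3K4me3 width of 1132 bp, against 856 bp for 1786 other treated-only regions. The widest H3K27me3 was at chr11:98188190-98190461, where an untreated peak of 1187 bp overlapped the lower end of a treated H3K4me3 peak of 2272 bp. At chr11:75006451-75009207 an H3K27me3 peak of 771 bp lay inside an H3K4me3 peak of 2757 bp. At chr19:25579839-25581854 H3K27me3 peaks of 230 and 359 bp lay inside 2016 bp of H3K4me3. At chr2:165193185-165194438 and chr2:25145698-25146970 H3K4me3 covered 1254 and 1273 bp and H3K27me3 645 and 602 bp.

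The 5 regions of the reverse class had narrow peaks. H3K4me3 was listed in untreated cells over 577 to 1096 bp, and H3K27me3 in treated cells over 160 to 404 bp. The regions were chr3:95776734-95777310, chr4:99326645-99327592, chr7:77470337-77471149, chr10:126518070-126519060 and chr15:98635578-98636673. In those on chromosomes 3, 7 and 15 the H3K27me3 peak extended past the region's lower end. An untreated H3K27me3 peak of 1670 bp lay on the neighbouring region at chr10:126515441-126517554, where H3K4me3 covered 2114 bp (treated) and 1950 bp (untreated).

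H3K27me3 and H3K4me3 were both confined to the treated lists in 17 regions. The largest was chr11:94813166-94816443, with 3 treated H3K27me3 peaks that summed to 2207 bp on 3278 bp of H3K4me3. The other 16 had 1 H3K27me3 peak each. In 7 regions both were confined to the untreated lists, the widest at chr3:45179851-45186048 with 6198 bp of H3K4me3 and 265 bp of H3K27me3. These 2 regions were picked after their values were seen.

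Regions close to the limit of the rule were examined with no test. In 19 regions the largest overlap with an H3K27me3 peak was under 50 bp, down to 4 bp, against a median of 262.5 bp over all 640. The 15 of these with H3K4me3 in both conditions had a median log2 ratio of 0.09. Just outside the rule, 25 regions had an H3K27me3 peak clear of input up to 100 bp away, the nearest at 7 bp, and the 19 of them with H3K4me3 in both conditions had a median of 0.21.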

How the data were processed

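ChIP-seq peak lists of 6 libraries were used, 1 per group. The submitters' processing notes list, without saying what each did, HOMER, MACS 1.4.3, Bowtie2 2.2.5, CASAVA 1.7 and the build mm9. Neither the threshold nor the control for calling is given in the sources used here. The authors deposited only the start and end of each peak, with no score or depth. Width is end minus start. Read depth is unknown, and a peak's presence and width both depend on it.

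After 4 mitochondrial H3K4me3 peaks were dropped, 18185 treated and 17164 untreated peaks were merged. Scripts in Python 3.11.15 (scipy 1.17.1, numpy 2.4.6, figures with matplotlib 3.10.9) found the overlaps, which were checked against bedtools 2.31.1 and tested on simulated data. Shares have 95% Wilson intervals and medians 95% order-statistic intervals. The members, classes and alternatives were chosen with earlier results of these data known. Regions are named by rank within their class: most H3K27me3 for regions with both marks in both conditions (8) and for opposite listing (5 each way), largest (6) and smallest (4) H3K4me3 ratio, and most H3K27me3 peaks (5). The planned gene lists, promoter annotation and base composition were not evaluated, because the reference tables are of GRCm38.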

Additional observations from a re-analysis of the deposited data

How the results depend on the processing

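Of the 11 alternatives, 10 were planned and 1, which required H3K27me3 to touch the untreated H3K4me3 peak, was added after seeing the data. The number of regions ran from 474 (H3K27me3 peaks of at least 200 bp) to 719 (no input filter), against 640, and the median log2 ratio of H3K4me3 width from 0.24 (H3K27me3 on the untreated H3K4me3 peak, 508 regions) to 0.31. It left its own interval only with H3K27me3 peaks of at least 200 bp, where it was 0.31, with 91.3% of regions wider in treated cells; that alternative drops the narrowest H3K27me3 peaks, and the cause was not tested. The count of regions with both marks in both conditions was 118 without the input filter and 36 with the 200 bp minimum, against 57. The number with H3K4me3 in treated and H3K27me3 in untreated cells only was 38 to 50 in the alternatives that can hold such regions. Alternatives that require an untreated H3K4me3 peak, alone or with a treated one, exclude this class by construction. No direction of the H3K4me3 width ratio reversed. With equal numbers of H3K27me3 peaks per condition there were 552 regions and a median of 0.29. No paired analysis was possible because each group has 1 library, and no library could be left out. Depth is unknown, so a missing peak does not show that a mark is absent.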

Other observations

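Regions with both marks were found on every chromosome listed, at 3.38% of all H3K4me3 regions (3.13 to 3.65). On chromosome X they made up 3 of 602 regions (0.498%, 0.170 to 1.46) and on chromosome 14 they made up 9 of 617 (1.46%, 0.769 to 2.75). Both intervals lie below the overall share. The highest autosomal share was on chromosome 12, with 32 of 690 (4.64%, 3.30 to 6.47). The 3 regions on chromosome X had log2 H3K4me3 width ratios of 0.10, -0.24 and 0.03.

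Regions with both marks lay slightly closer to other H3K4me3 regions, with a median distance of 20.6 kb to the nearest one against 24.2 kb for other regions, and 49.2% (45.4 to 53.1) had one within 20 kb, against 44.4% (43.7 to 45.2). The median distance to the next region with both marks was 613 kb, where such regions made up 3.38% of all H3K4me3 regions. Of the 639 with another on the same chromosome, 46 had it within 20 kb (7.20%, 5.44 to 9.47), in 19 pairs and 2 groups of 4. No matching share for regions taken without regard to H3K27me3 was computed. These counts therefore do not show whether the regions lie closer together or further apart than others. One group of 4, at chr4:151504221-151534175, had untreated H3K27me3 alone in each region (248 to 494 bp), and H3K4me3 was wider in treated cells in all 4, with log2 ratios of 0.45, 0.28, 0.51 and 1.18. The other, at chr8:108188230-108195460, had H3K27me3 of both conditions in each region. From the lowest coordinate up, its H3K4me3 widths were 795, 386, 859 and 758 bp in treated cells. In untreated cells no peak was listed in the 386 bp region, and the other widths were 848, 539 and 394 bp.

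The regions at chr4:3016501-3018712 and chr18:3004886-3006420 are, with the one on chromosome Y, those that touched input peaks, with 7 and 6 of them. Their H3K27me3 peaks were 58 bp (untreated) on chromosome 4, and 86 bp (treated) and 94 bp (untreated) on chromosome 18. The log2 H3K4me3 width ratios were 0.09 and 0.35.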
